A study of Homo sapiens with 32 samples.

Results

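Divergent transcripts are long noncoding RNAs that start at the promoter of a coding gene and run the other way, and their symbols carry the name of that gene followed by -DT. All genes with such a symbol and a mean of at least 20 reads over the 32 libraries were taken, which gave 150 transcripts of 588 gene IDs with a -DT symbol, among 60662 gene IDs in all. Just inside the limit were HNRNPD-DT with a mean of 20.1 reads, PGLS-DT with 20.1 and SPECC1-DT with 20.3, and just outside it were TNKS2-DT with 19.5, JARID2-DT with 18.8 and YTHDF3-DT with 18.8. The gene named before -DT, here called the partner, was found for all 150, and every partner was protein coding.

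The libraries came from HEK293T cells, a transformed human embryonic kidney line, and poly(A) RNA was sequenced on a strand-specific protocol. STM2457 is an inhibitor of METTL3, the enzyme that writes N6-methyladenosine (m6A) on messenger RNA. YTHDF2 is a reader protein of that mark which leads messages to decay, and emetine stops translation elongation. The knockdown experiment held 12 libraries in 4 groups of 3: YTHDF2 siRNA with STM2457 for 6 h, YTHDF2 siRNA with DMSO for 6 h, STM2457 for 6 h and DMSO for 6 h. The emetine experiment held another 12 in 4 groups of 3: STM2457 for 6 h with emetine in the last 2 h, DMSO for 6 h with emetine in the last 2 h, STM2457 for 6 h with DMSO in the last 2 h, and DMSO alone over the same times. The third experiment compared 4 libraries of STM2457 for 9 h with 4 of DMSO for 9 h. STM2457 was used at 20 µM in 0.2% DMSO, siRNA at 20 nM and emetine at 1.8 µM. Cells without YTHDF2 siRNA are labelled WT, and whether they were given a control siRNA is not stated, so transfection and loss of YTHDF2 cannot be told apart. All groups are of 1 cell line, and nothing says that replicates were separate cultures, so p-values measure the spread between these libraries, which may be technical.

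Most active mammalian promoters fire in both directions. The upstream product is usually ended early at poly(A) signals that U1 snRNP would otherwise mask, and it is cleared by the nuclear exosome, so it is short-lived and stays mostly in the nucleus. Those divergent transcripts that carry a -DT symbol are the ones annotated as genes of their own, often spliced and polyadenylated, and few have a known function.

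In GENCODE 29, 149 of the 150 were annotated, all but ACAD9-DT, and each of these 149 lay on the strand opposite its partner. The closest starts of the pair were within 500 bp in 137 pairs and within 1000 bp in 145, with a median gap of 124 bp between them. A gap above 0, which leaves the pair head to head without overlap at the start, was found in 134 pairs. The median exonic length was 2194 bp for the divergent transcripts and 5416.5 bp for the partners, and 33 of the divergent transcripts had only single-exon models. Exons of 64 overlapped an exon of another gene on the other strand, in 38 cases that of the partner itself, and exons of 6 overlapped another gene on the same strand. Since the strand setting of the counting is not given in the sources used here, reads of these overlapping genes cannot be assigned with certainty, and counts for the 81 without any exon overlap are given beside the totals.

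The promoters of 6 pairs on which the results below turn are shown here, 250 bases before to 50 after the RefSeq start of the divergent transcript (GRCh38.p14), written on its own strand. Capitals mark the bases between the RefSeq start of the partner, which runs the other way, and that of the divergent transcript, both starts included. For CEBPA-DT the partner starts 287 bp upstream, outside the window, and the capitals run from the window's first base. The distance between the starts was 59 bp for TFIP11-DT, 140 bp for HK2-DT, 123 bp for UBA6-DT, 145 bp for NCK1-DT and 69 bp for BOLA3-DT. CEBPA-DT (chr19:33302571-33302870, plus strand), TFIP11-DT (chr22:26512282-26512581, plus), HK2-DT (chr2:74833938-74834237, minus), UBA6-DT (chr4:67701028-67701327, plus) and NCK1-DT (chr3:136862014-136862313, minus) fell under STM2457, while BOLA3-DT (chr2:74147731-74148030, plus) rose.
CEBPA-DT: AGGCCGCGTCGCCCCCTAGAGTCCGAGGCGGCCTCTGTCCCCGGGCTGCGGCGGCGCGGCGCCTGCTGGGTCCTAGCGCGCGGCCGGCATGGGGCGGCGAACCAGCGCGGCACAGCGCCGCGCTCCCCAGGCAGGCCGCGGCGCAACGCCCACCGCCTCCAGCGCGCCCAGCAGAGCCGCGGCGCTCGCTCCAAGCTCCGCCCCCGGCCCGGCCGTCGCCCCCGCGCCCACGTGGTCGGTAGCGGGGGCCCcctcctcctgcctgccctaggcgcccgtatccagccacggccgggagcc
TFIP11-DT: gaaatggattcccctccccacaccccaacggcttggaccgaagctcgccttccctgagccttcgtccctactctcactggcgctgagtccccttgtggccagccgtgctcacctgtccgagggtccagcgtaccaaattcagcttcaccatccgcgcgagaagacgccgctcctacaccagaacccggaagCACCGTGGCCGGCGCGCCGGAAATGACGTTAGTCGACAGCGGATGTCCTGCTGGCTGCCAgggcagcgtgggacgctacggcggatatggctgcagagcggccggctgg
HK2-DT: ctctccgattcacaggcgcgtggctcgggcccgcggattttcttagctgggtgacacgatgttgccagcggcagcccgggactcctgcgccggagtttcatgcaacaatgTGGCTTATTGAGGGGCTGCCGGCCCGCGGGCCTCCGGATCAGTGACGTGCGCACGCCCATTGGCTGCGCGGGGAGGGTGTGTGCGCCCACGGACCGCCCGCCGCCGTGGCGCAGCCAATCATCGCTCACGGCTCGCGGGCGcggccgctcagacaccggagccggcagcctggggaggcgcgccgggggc
UBA6-DT: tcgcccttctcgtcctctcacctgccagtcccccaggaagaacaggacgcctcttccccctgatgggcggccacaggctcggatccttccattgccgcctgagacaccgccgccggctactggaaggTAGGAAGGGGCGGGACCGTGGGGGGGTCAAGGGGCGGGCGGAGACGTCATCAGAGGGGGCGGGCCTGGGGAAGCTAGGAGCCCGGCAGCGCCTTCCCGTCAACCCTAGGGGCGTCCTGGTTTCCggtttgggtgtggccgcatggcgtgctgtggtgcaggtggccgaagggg
NCK1-DT: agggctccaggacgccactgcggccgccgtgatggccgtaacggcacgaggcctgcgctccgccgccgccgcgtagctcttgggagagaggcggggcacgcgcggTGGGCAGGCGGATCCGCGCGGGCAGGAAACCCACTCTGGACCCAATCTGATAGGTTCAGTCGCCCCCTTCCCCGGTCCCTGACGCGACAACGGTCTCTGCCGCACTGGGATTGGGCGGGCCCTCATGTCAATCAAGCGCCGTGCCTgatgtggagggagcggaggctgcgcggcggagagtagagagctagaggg
BOLA3-DT: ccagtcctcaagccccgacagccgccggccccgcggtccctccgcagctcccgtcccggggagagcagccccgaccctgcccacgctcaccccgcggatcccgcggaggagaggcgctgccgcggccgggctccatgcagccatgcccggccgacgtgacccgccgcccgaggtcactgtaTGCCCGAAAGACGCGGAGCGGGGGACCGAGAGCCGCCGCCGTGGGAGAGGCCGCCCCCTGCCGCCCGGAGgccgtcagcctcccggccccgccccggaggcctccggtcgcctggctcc
RefSeq windows of this kind were found for 123 of the 150. Their median GC content was 69%, against 58.7% over all 35116 windows of that length, and they held a median of 32 CG dinucleotides, against 14. The GC box GGGCGG, searched on both strands, was in 96 of the 123 windows (78.05%) and in 44.95% of all windows. TATAAA was in 5 of 123 (4.07%), against 11.5% of all windows, and CCAAT was in 46 (37.4%), against 34.6%. The ETS-type letters CCGGAAGT were in 16 (13.01%), against 4.14% of all windows.

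Gene counts summed to 21781514 to 42303951 per library, and the 150 divergent transcripts took 0.0283 to 0.0602% of them. Mean reads per divergent transcript ran from 20.1 to 560.2 with a median of 55.4, so counting error alone is large for the lower ones, and all 150 passed the filter on low counts in every fit. Levels are given as CPM, the reads of a gene scaled to a common library size after TMM, and log2 changes are treated over control from edgeR, with their SE. A change was called where the adjusted p was under 0.05 over all genes tested. Markers of the HEK293T line were present (10 of 10 at a mean of at least 1 CPM, summed level 498 to 1002 CPM), and those of keratin epithelium (4 genes), blood (5) and hepatocytes (4) summed to at most 0.650 CPM in any library. Fibroblast markers summed to 16.1 to 25.8 CPM, with 1 of 5 at a mean of at least 1 CPM. YTHDF2 itself stood at 43.3 ± 1.14 CPM with siRNA and DMSO, against 178 ± 3.91 CPM in DMSO, and at 76.9 ± 3.28 CPM with siRNA and STM2457, against 618 ± 36.8 CPM in STM2457 (SD, n = 3 each).

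Per kilobase of exon, the divergent transcripts were low. Their level had a median of 0.947 CPM per kb with quartiles of 0.508 and 1.72, and the partner stood above the divergent transcript by a median of 9.97 times, while in 19 pairs the divergent transcript was the higher one. Among the highest by mean CPM over the 32 libraries were ZNF584-DT with 14.8, SLC12A2-DT with 14.5, TMEM161B-DT with 13.6, CTBP1-DT with 12.8, BAIAP2-DT with 11.5, NIPBL-DT with 11.2 and RAB30-DT with 11.1 CPM. Over the 10 groups, group means of BAIAP2-DT lay between 4.302 and 19.7 CPM and those of RAB30-DT between 9.58 and 13.7 CPM.

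With STM2457 for 6 h more of the divergent transcripts fell than rose. In the knockdown experiment 58 of the 150 fell and 10 rose, where 22.1% of all genes tested fell, 22.9% rose and 45% were called either way. In the emetine experiment, in libraries without emetine, 60 fell and 8 rose, where 21.9% of all genes fell, 26% rose and 47.8% were called either way. In whole-culture RNA, fewer cells of a kind and less RNA per cell cannot be told apart. These 2 comparisons share no library. The median log2 change of the 150 was -0.23 in the first and -0.36 in the second, beside -0.02 and 0.00 over all genes, and the same transcripts were involved: 50 fell in both, 5 rose in both and 0 were called in opposite directions, where 15.2% of all genes tested in both fell in both and 20% rose in both. Across the 150 transcripts the changes of both experiments correlated with Pearson r = 0.90 (Spearman rho = 0.86, as a description, since transcripts are not replicates). All STM2457 libraries lay on one side of all DMSO libraries for 82 of the 150 transcripts in the knockdown experiment, 69 of them lower. Of all genes, 50.4% did not overlap there. In the emetine experiment this held for 78, 62 of them lower, where 52.4% of all genes did not overlap. Both totals are near the share of all genes. Those shares of all genes were not split by direction, here or in the comparisons below. Among the 81 without exon overlap, 31 fell and 7 rose in the knockdown experiment and 32 fell and 5 rose in the emetine experiment.

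**Figure D1:**
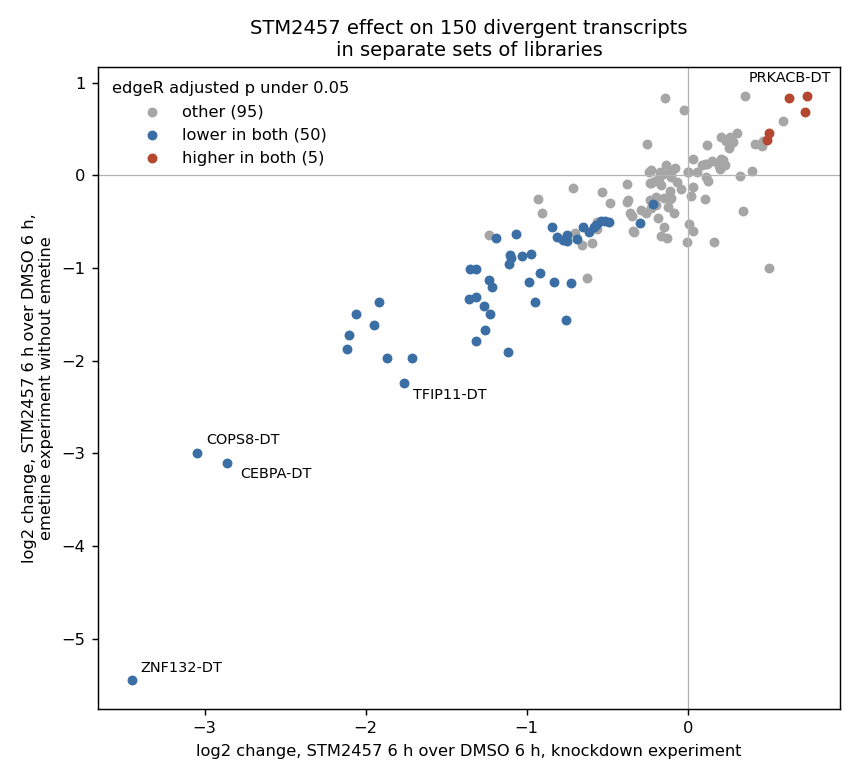
Each point is 1 of the 150 divergent transcripts, with its log2 change under STM2457 for 6 h in the knockdown experiment on the x axis and in the emetine experiment without emetine on the y axis. The 50 that fell in both lie below and left of 0, the 5 that rose in both lie above and right of 0, and none was called in opposite directions.

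The summed level moved the same way. In the knockdown experiment the 150 transcripts summed to 336.6 ± 5.54 CPM with STM2457 and 431.5 ± 9.003 CPM with DMSO (SD, n = 3 each), a change of -21.9986%. In the emetine experiment they summed to 362.04 ± 1.21 CPM with STM2457 and 477.4 ± 13.04 CPM with DMSO (SD, n = 3 each), a change of -24.2%. The libraries of both groups did not overlap in either. Without the 10 most abundant transcripts the sums changed by -23.7% and -25.6%. On the TMM scaling the partners' summed CPM went the other way, 5.67% and 5.78% higher with STM2457, also with no overlap. Partner sums were not taken under other scalings. The partners' median log2 change was 0.01 and 0.02 with TMM. Scaled to ribosomal protein genes it was -0.28 and -0.14, and scaled to ERCC spike-in RNAs -0.36 and -0.12.

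**Figure D2:**
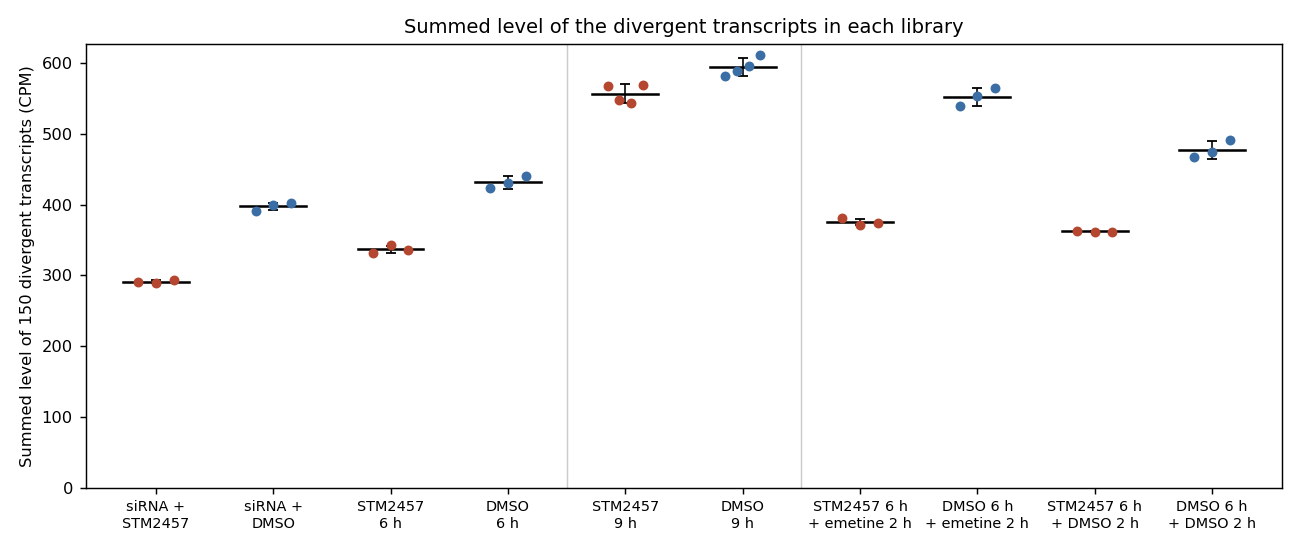
Summed CPM of the 150 divergent transcripts in each library (points; red with STM2457, blue with DMSO), with the group mean (line) and SD (bar), in the knockdown, 9 h and emetine experiments from left to right. STM2457 libraries lie below their DMSO libraries in each of the 5 pairs of groups, with a change of -6.29% at 9 h and of -21.9986 to -32.009% at 6 h.

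Other scalings move all genes together, so the changes were also set against the median of all genes. Scaled to ribosomal protein genes or to ERCC spike-in RNAs, the median of all genes itself moved by -0.29 and -0.38 in the knockdown experiment and by -0.16 and -0.14 in the emetine experiment. The median of the divergent transcripts minus that of all genes was -0.21 to -0.22 on the log2 scale in the knockdown experiment and -0.37 in the emetine experiment under all 3 scalings. In the knockdown experiment 84 of the 150 fell and 1 rose when scaled to ribosomal protein genes, where 46.4% of all genes fell and 6.85% rose. Scaled to spike-ins 76 fell and 0 rose there, where 33.3% of all genes fell and 2.48% rose. All 50 that fell in both experiments stayed called as lower in both under either scaling.

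CEBPA-DT, beside the gene of a transcription factor of myeloid, liver and fat cell differentiation, had the largest fall at 6 h, in both experiments, among divergent transcripts that averaged 0 or more in log2 CPM. In the knockdown experiment it had 0.231, 0.412 and 0.359 CPM with STM2457, against 2.64, 2.26 and 2.44 CPM with DMSO. Over the emetine experiment it had 0.315, 0.424 and 0.239 CPM with STM2457, against 2.38, 2.69 and 3.46 CPM with DMSO. Every STM2457 library lay far below every DMSO library, with log2 changes of -2.86 ± 0.24 (SE), edgeR adjusted p = 1.9e-08 in the first and -3.11 ± 0.28 (SE), edgeR adjusted p = 2.4e-11 in the second. CEBPA itself was not called in the first, with a log2 change of 0.21 ± 0.10 (SE), edgeR adjusted p = 0.088 in the knockdown experiment and a small rise of 0.24 ± 0.07 (SE), edgeR adjusted p = 0.0056 in the emetine experiment. The single exon of CEBPA-DT overlaps AC008738.2 on the same strand in GENCODE 29.

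BAIAP2-DT, whose partner encodes an adaptor between membrane and actin, was among the 8 most abundant. It stood at 5.52, 5.92 and 3.92 CPM with STM2457, against 19.3, 17.7 and 19.2 CPM with DMSO, in the knockdown experiment, and at 4.59, 4.495 and 3.82 CPM, against 16.5, 16.4 and 17.5 CPM, in the emetine experiment. The groups were far apart in each, and the log2 change was -1.87 ± 0.10 (SE), edgeR adjusted p = 4.7e-11 and -1.97 ± 0.09 (SE), edgeR adjusted p = 2.2e-18. BAIAP2 was not called in either, with log2 changes of -0.03 ± 0.05 and 0.07 ± 0.05.

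TFIP11-DT lies beside the gene of a factor that takes spliceosomes apart. Its level was 1.72, 1.73 and 1.23 CPM with STM2457, against 5.03, 5.76 and 5.100 CPM with DMSO, in the knockdown experiment. TFIP11 over the same libraries had 106, 116 and 116 CPM with STM2457, against 72.02, 71.8 and 72.4 CPM with DMSO. The pair moved apart, with log2 changes of -1.76 ± 0.13 (SE), edgeR adjusted p = 2.5e-09 for TFIP11-DT and 0.65 ± 0.06 (SE), edgeR adjusted p = 1.3e-07 for TFIP11, and no library of STM2457 overlapped one of DMSO for either gene. In the emetine experiment the changes were -2.24 ± 0.16 and 0.70 ± 0.04.

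Other large falls were those of PDCD6IP-DT (partner an ESCRT-associated adaptor), KCTD13-DT (partner a substrate adaptor of a cullin ubiquitin ligase) and HK2-DT (partner a hexokinase, the first step of glycolysis). PDCD6IP-DT had 0.718, 0.592 and 0.385 CPM with STM2457, against 2.32, 2.87 and 2.203 CPM with DMSO, in the knockdown experiment, a log2 change of -2.12 ± 0.20 (SE), edgeR adjusted p = 1.0e-07. KCTD13-DT had 0.436, 0.567 and 0.359 CPM, against 1.67, 2.07 and 1.96 CPM, a log2 change of -2.06 ± 0.20 (SE), edgeR adjusted p = 1.4e-07. HK2-DT had 1.17, 1.48 and 1.31 CPM with STM2457, against 5.49, 5.496 and 4.597 CPM with DMSO, in the emetine experiment, a log2 change of -1.97 ± 0.17 (SE), edgeR adjusted p = 6.1e-12. In none of these did a library of one group reach into the other, and the partners PDCD6IP, KCTD13 and HK2 were not called in either experiment, with log2 changes between -0.11 and 0.06. Exons of HK2-DT and HK2 overlap on opposite strands.

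UBA6-DT and CHKB-DT fell in every comparison with STM2457. UBA6-DT, beside the gene of a ubiquitin-activating enzyme, had 5.004, 5.56 and 5.92 CPM with STM2457, against 13.7, 12.9 and 12.98 CPM with DMSO (-1.26 ± 0.08 log2, edgeR adjusted p = 4.2e-10). CHKB-DT, beside a choline kinase gene, had 2.56, 2.46 and 2.51 CPM with STM2457, against 7.37, 6.73 and 7.201 CPM with DMSO, in the emetine experiment (-1.50 ± 0.13 log2, edgeR adjusted p = 1.2e-11). Groups did not overlap in either case. Below 1 CPM on average, ZNF132-DT was nearly lost: it had 0, 0 and 1 reads with STM2457, against 16, 34 and 15 reads with DMSO, in the emetine experiment, and 3, 2 and 7 reads, against 46, 48 and 50 reads, in the knockdown experiment. COPS8-DT, beside the gene of a subunit of the COP9 signalosome, had 3, 6 and 5 reads with STM2457, against 46, 41 and 39 reads with DMSO, in the knockdown experiment. At such counts the size of a fold is loose, but no library of STM2457 came near one of DMSO.

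The most abundant divergent transcripts changed by different amounts. SLC12A2-DT, beside the gene of a sodium, potassium and chloride cotransporter, had 11.3, 12.3 and 13.02 CPM with STM2457, against 13.9, 14.4 and 14.1 CPM with DMSO, in the knockdown experiment (-0.21 ± 0.08 (SE), edgeR adjusted p = 0.028). CTBP1-DT, whose partner encodes a transcriptional corepressor, had 8.31, 8.73 and 8.56 CPM, against 14.2, 13.6 and 12.4 CPM (-0.65 ± 0.08 (SE), edgeR adjusted p = 1.8e-06), and NIPBL-DT, beside the gene of the cohesin loader, had 7.78, 6.57 and 7.404 CPM, against 10.9, 9.68 and 10.5 CPM, in the emetine experiment (-0.52 ± 0.10 (SE), edgeR adjusted p = 9.4e-05). In all 3 every STM2457 library was below every DMSO library. TMEM161B-DT and RAB30-DT were called higher in the knockdown experiment, by 0.20 ± 0.08 (SE), edgeR adjusted p = 0.045, for TMEM161B-DT and 0.22 ± 0.07 (SE), edgeR adjusted p = 0.018, for RAB30-DT, and neither was called in the emetine experiment. Both directions depend on the scaling. Scaled to ribosomal protein genes the values were -0.082 for TMEM161B-DT and -0.0703 for RAB30-DT (edgeR adjusted p = 0.58 and 0.56), and scaled to spike-ins -0.18 and -0.16 (edgeR adjusted p = 0.49 and 0.55). NIPBL rose while NIPBL-DT fell in the emetine experiment, by 0.41 ± 0.05, whereas SLC12A2 was not called in either experiment.

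Over all 5 comparisons of STM2457 with its control, 31 divergent transcripts fell in each and 1, BOLA3-DT, rose in each, where 4.96% of all genes tested in all 5 fell in each and 9.45% rose in each. The 5 comparisons share no library. The rise of BOLA3-DT within emetine was not called without replicate 1 of STM2457 with emetine or without replicate 1 or 2 of emetine alone (edgeR adjusted p = 0.14, 0.081 and 0.071). Beside those given above, the 31 include EIF3J-DT (partner an initiation factor subunit), MOCS2-DT (molybdenum cofactor synthesis), DNAJC3-DT (a chaperone of the endoplasmic reticulum), GMDS-DT (GDP-fucose synthesis), MAN1B1-DT (a mannosidase), MAP2K5-DT (a MAP kinase kinase), MFF-DT (mitochondrial fission), ZMPSTE24-DT (the lamin protease), CNN3-DT (a calponin) and, of zinc finger genes, ZNF691-DT and ZNF747-DT. EIF3J-DT had 1.85, 2.63 and 1.87 CPM with STM2457, against 5.203, 5.43 and 5.17 CPM with DMSO, in the knockdown experiment, and 2.66, 2.62, 3.08 and 2.58 CPM, against 6.03, 5.45, 5.01 and 5.81 CPM, at 9 h. MOCS2-DT had 2.52, 2.502 and 2.71 CPM, against 6.25, 6.28 and 7.08 CPM, in the emetine experiment. Groups did not overlap in any of these. EIF3J-DT changed by -1.32 ± 0.14 (SE), edgeR adjusted p = 3.8e-07, in the knockdown experiment and by -1.03 ± 0.10 (SE), edgeR adjusted p = 4.5e-09, at 9 h, and MOCS2-DT by -1.34 ± 0.14 (SE), edgeR adjusted p = 4.0e-10.

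The 5 transcripts that rose in both 6 h comparisons were BOLA3-DT, EMSY-DT, PAPOLA-DT, PCDH10-DT and PRKACB-DT, and the same 5 rose at 9 h. BOLA3-DT, beside a gene of mitochondrial iron-sulfur protein maturation, had 12.03, 11.9 and 11.8 CPM with STM2457, against 8.29, 8.79 and 8.26 CPM with DMSO (0.49 ± 0.07 log2, edgeR adjusted p = 5.8e-06). PRKACB-DT, beside the gene of a catalytic subunit of protein kinase A, had 2.57, 2.65 and 3.02 CPM, against 1.42, 1.79 and 1.72 CPM (0.74 ± 0.15 log2, edgeR adjusted p = 6.9e-04). PAPOLA-DT, beside the gene of the canonical nuclear poly(A) polymerase, had 1.39, 1.44 and 1.31 CPM with STM2457, against 0.6504, 1.01 and 0.651 CPM with DMSO, in the emetine experiment (0.84 ± 0.26 log2, edgeR adjusted p = 0.0088). In these 3 the groups did not overlap. These rises depend on the scaling: in the knockdown experiment 1 of the 5 stayed called when scaled to ribosomal protein genes and 0 when scaled to spike-ins, and in the emetine experiment 3 of 5 with either, although all 5 values stayed above 0. For PAPOLA-DT the rise also rests on single libraries. In the knockdown experiment it was not called without replicate 1 or replicate 3 of STM2457 (log2 0.53 and 0.55, edgeR adjusted p = 0.068 and 0.057). The emetine experiment gave no call without replicate 1 of DMSO (0.69, edgeR adjusted p = 0.057). At 9 h it was not called without replicate 3 of DMSO or replicate 2 or 3 of STM2457 (edgeR adjusted p = 0.12, 0.062 and 0.11).

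PCDH10-DT rose together with its partner, a protocadherin gene for cell adhesion. PCDH10-DT had 2.85, 2.45 and 2.33 CPM with STM2457, against 1.32, 1.48 and 1.796 CPM with DMSO, in the knockdown experiment, and 4.76, 4.41, 4.46 and 4.52 CPM, against 1.22, 1.26, 1.25 and 1.56 CPM, at 9 h. PCDH10 had 525, 470, 498 and 467 CPM with STM2457, against 83.00, 82.1, 79.2 and 77.5 CPM with DMSO, at 9 h. All treated libraries were above all controls, with log2 changes of 0.73 ± 0.15 at 6 h and 1.77 ± 0.12 (SE), edgeR adjusted p = 4.2e-12 at 9 h for the divergent transcript, and 1.34 ± 0.07 and 2.61 ± 0.04 (SE), edgeR adjusted p = 9.8e-25 for the partner. In the emetine experiment the rise of PCDH10-DT was not called without replicate 1 of STM2457 or of DMSO (log2 0.41 and 0.52, edgeR adjusted p = 0.25 and 0.14).

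At 9 h the balance was nearer that of all genes. With STM2457 for 9 h, 42 of the 150 fell and 30 rose, where 32.5% of all genes fell, 32.2% rose and 64.7% were called either way, and the median log2 change was -0.03 beside -0.0016 over all genes. Libraries did not overlap for 59 of the 150, 35 of them lower, where 57.5% of all genes did not overlap. The split depended on the scaling, with 28 lower and 47 higher when libraries were scaled to ribosomal protein genes, a scaling in which the all-gene median shifted by 0.17. Under it 15.3% of all genes fell and 47.6% rose, so the share of the 150 that rose was below that of all genes. The summed level was 556.9 ± 13.3 CPM with STM2457 and 594.3 ± 12.6 CPM with DMSO (SD, n = 4 each), a change of -6.29% with no overlap of libraries. Of the 50 that fell in both 6 h comparisons, 33 also fell at 9 h. Among the 15252 genes tested in all 3 comparisons, 2322 fell in both at 6 h. Of these 2322 genes, 1697 also fell at 9 h, which is 11.1% of the 15252 tested. The share that also fell at 9 h was thus smaller among the 50 than among the 2322. The other 17 of the 50 divergent transcripts include INSIG1-DT, MVP-DT and ZNF584-DT, which rose at 9 h.

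Tested in 1 fit of the 14 libraries, the effect of STM2457 was higher at 9 h than at 6 h in the knockdown experiment for 43 of the 150 transcripts and lower for 2, where 17.2% of all genes were higher, 16.8% lower and 34% called either way. The 9 h libraries are another experiment, so time and experiment cannot be told apart. CEBPA-DT had 2.71, 2.31, 2.19 and 2.84 CPM with STM2457 for 9 h, against 3.402, 3.45, 4.002 and 3.21 CPM with DMSO, a log2 change of -0.50 ± 0.12 (SE), edgeR adjusted p = 8.9e-04, and the difference from the 6 h effect was 2.38 ± 0.24 (SE), edgeR adjusted p = 5.3e-07. INSIG1-DT, beside the gene of a sterol-sensing protein of the endoplasmic reticulum, turned round. It had 1.05, 1.06 and 0.769 CPM with STM2457 for 6 h, against 1.99, 1.83 and 1.75 CPM with DMSO, and 3.796, 3.78, 4.597 and 4.73 CPM with STM2457 for 9 h, against 2.28, 2.59, 2.23 and 2.28 CPM with DMSO. Neither pair of groups overlapped, and the difference of the effects was 1.82 ± 0.20 (SE), edgeR adjusted p = 1.5e-06 on the log2 scale. ZNF584-DT, a more abundant one, had 10.6, 10.7 and 8.38 CPM with STM2457 for 6 h, against 14.02, 13.9 and 15.3 CPM with DMSO, and 17.6, 15.5, 15.8 and 16.4 CPM for 9 h, against 13.4, 14.5, 13.3 and 13.8 CPM, a difference of effects of 0.81 ± 0.11 (SE), edgeR adjusted p = 1.1e-05. Its groups did not overlap at either time. MVP-DT was called likewise, but at 6 h its libraries overlapped, with 1.85, 2.65 and 1.179 CPM with STM2457 and 3.63, 1.57 and 6.73 CPM with DMSO.

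BAIAP2-DT and TFIP11-DT were still lower at 9 h. BAIAP2-DT had 10.3, 9.43, 8.81 and 10.2 CPM with STM2457, against 19.7, 20.6, 19.5 and 18.7 CPM with DMSO, a log2 change of -1.03 ± 0.06 (SE), edgeR adjusted p = 3.1e-13. TFIP11-DT had 4.36, 3.92, 3.89 and 3.27 CPM, against 7.61, 8.47, 9.01 and 8.83 CPM, a log2 change of -1.13 ± 0.09 (SE), edgeR adjusted p = 1.0e-10. Both sets of libraries were apart. Among those with the largest rises at 9 h were MRNIP-DT (0.97 ± 0.18 (SE), edgeR adjusted p = 3.0e-05), SLC20A1-DT (0.93 ± 0.16 (SE), edgeR adjusted p = 1.9e-05) and ISL1-DT (0.80 ± 0.12 (SE), edgeR adjusted p = 2.5e-06), on the log2 scale, which lie beside genes of DNA repair, phosphate transport and motor neuron development. None of these 3 was called in either 6 h comparison.

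**Figure D3:**
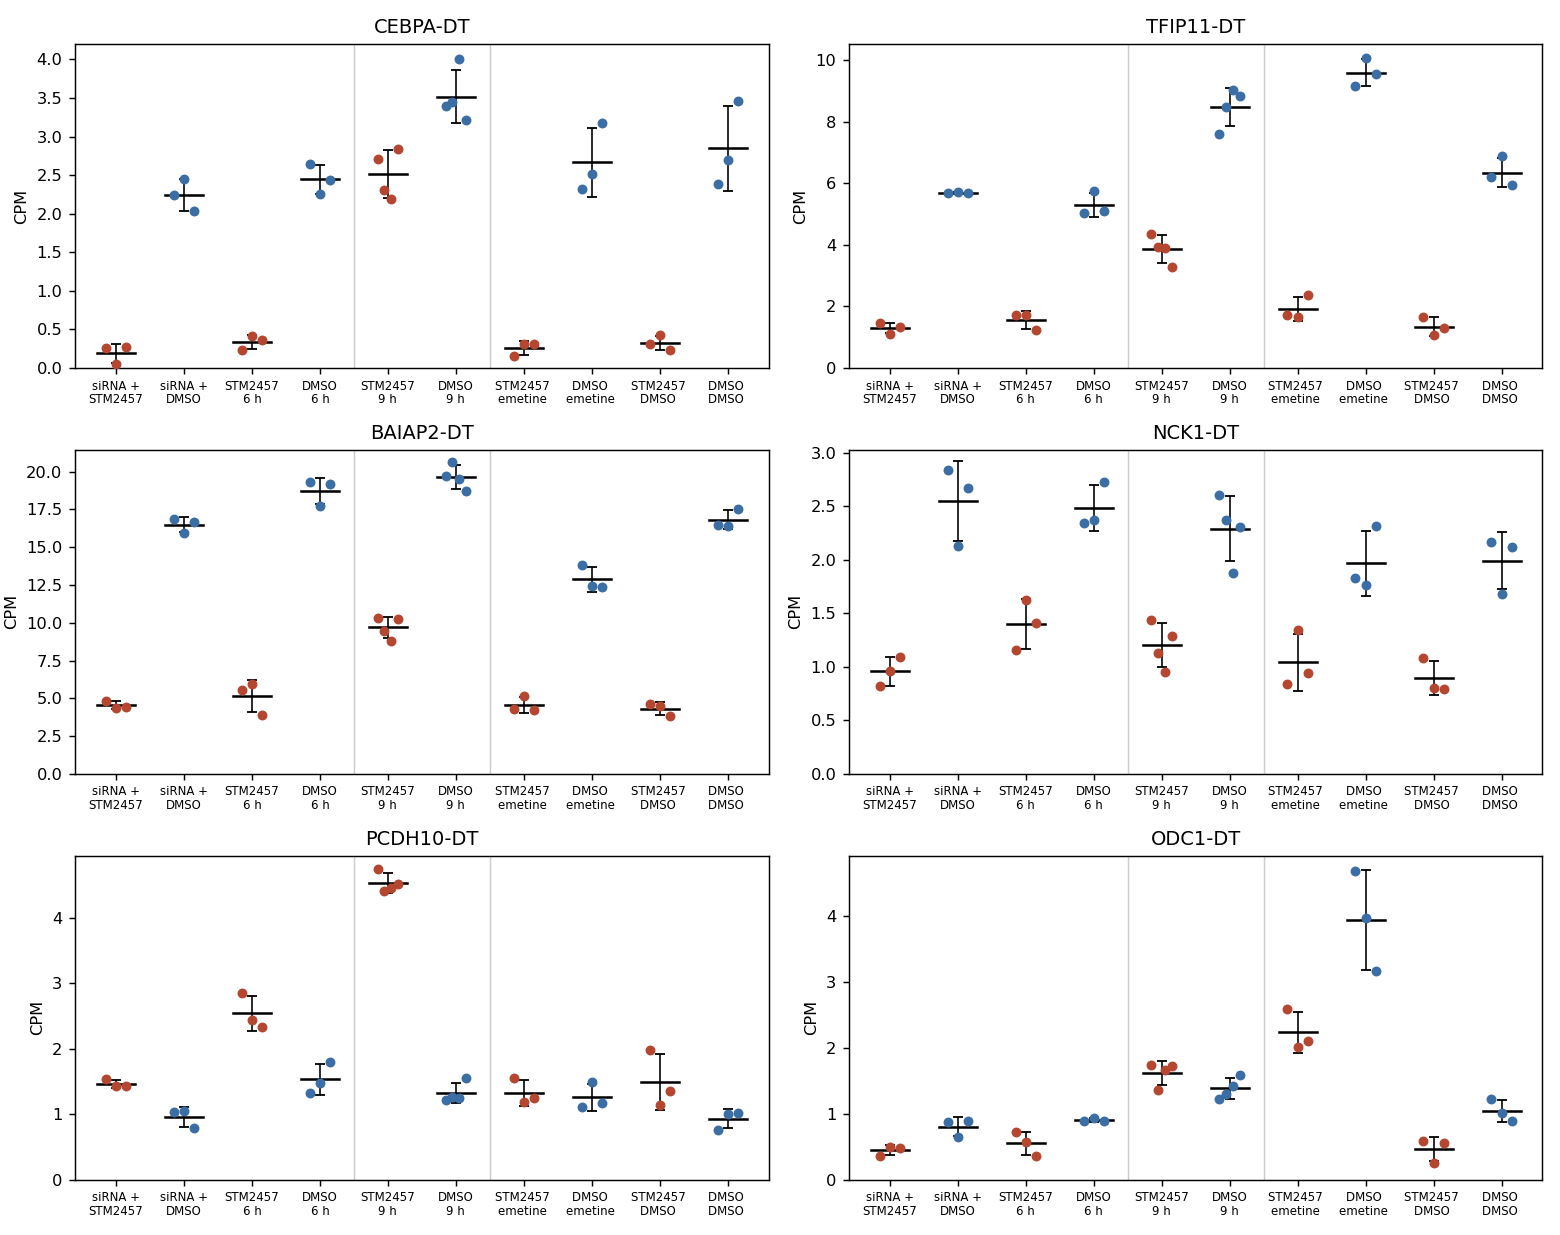
CPM of 6 divergent transcripts in each library (points; red with STM2457, blue with DMSO), with group means (lines) and SD (bars), for the knockdown, 9 h and emetine experiments from left to right; the last 4 groups had emetine or DMSO in the last 2 h. CEBPA-DT, TFIP11-DT, BAIAP2-DT and NCK1-DT are lower with STM2457 in all 5 pairs of groups, PCDH10-DT is highest with STM2457 for 9 h (4.41 to 4.76 CPM), and ODC1-DT is highest with emetine and no STM2457 (3.17 to 4.68 CPM).

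How the partners' calls split between higher and lower depended on the scaling. With STM2457 for 6 h in the knockdown experiment, 36 of the 147 partners tested fell and 50 rose, in the emetine experiment 34 of 146 fell and 56 rose, and at 9 h 50 of 147 fell and 56 rose, with median log2 changes of 0.01, 0.02 and 0.03. Lower were 24.5%, 23.3% and 34.01% of the partners, beside 22.1%, 21.9% and 32.5% of all genes, and higher were 34.01%, 38.4% and 38.1%, beside 22.9%, 26% and 32.2%. Scaled to ribosomal protein genes 74 fell and 18 rose in the knockdown experiment, 68 fell and 34 rose in the emetine experiment, and 23 fell and 88 rose at 9 h. Of all genes, 46.4%, 41.1% and 15.3% fell under that scaling, and 6.85%, 14.1% and 47.6% rose. Scaled to spike-ins 49 fell and 8 rose, and 49 fell and 34 rose, in the knockdown and emetine experiments. Of all genes, 33.3% and 30.6% fell under spike-in scaling, and 2.48% and 13.2% rose. The directions of single partners given here are those of the TMM scaling. C2orf74, PKD2L2 and ZNF132 did not pass the filter in any experiment, nor JAKMIP1 in the emetine experiment. Both genes of a pair were called in the same direction in 18 pairs and in opposite directions in 18 in the knockdown experiment, in 13 and 23 in the emetine experiment, and in 27 and 24 at 9 h. Across pairs, the changes of divergent transcript and partner had little linear relation at 6 h (Pearson r = 0.13 over 147 pairs and 0.04 over 146) and a weak one at 9 h (r = 0.23 over 147), which are descriptions across genes. The divergent transcript lay below its partner in log2 change in 104 of 147 pairs, 105 of 146 and 84 of 147. The plot of log2 changes by comparison shows the spread of both sets.

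**Figure D4:**
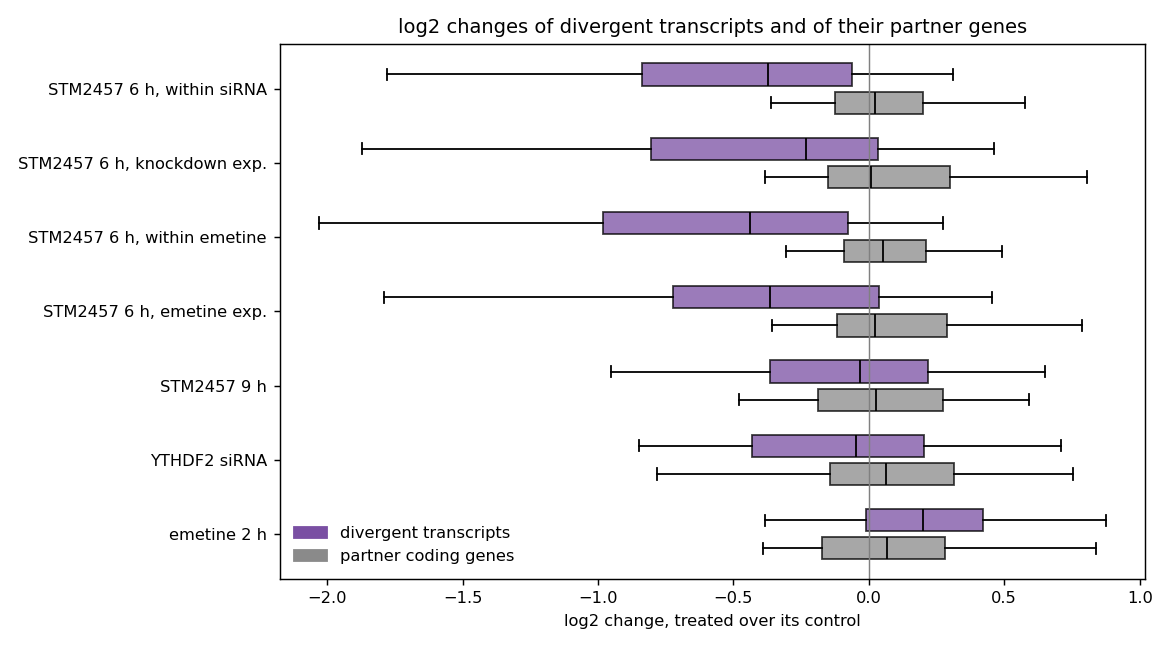
Boxes give the median and quartiles, and whiskers the 5th and 95th percentiles, of the log2 change (x axis, treated over its control) of the divergent transcripts (upper box, purple) and their partners (lower box, grey) in 7 comparisons. The divergent transcripts are shifted to lower values in the 4 comparisons of STM2457 for 6 h, with medians of -0.23 to -0.44, while the partners' medians lie between 0.01 and 0.07 in all 7.

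In 19 pairs the genes were called in opposite directions in at least 2 of the 3 comparisons of STM2457 without siRNA or emetine. The widest apart by their mean gap over the 3 comparisons were the pairs of CEBPA, TFIP11 and NCK1. NCK1 encodes an adaptor that links receptor tyrosine kinases to actin. NCK1-DT had 1.44, 1.12, 0.955 and 1.29 CPM with STM2457 for 9 h, against 2.600, 2.37, 1.88 and 2.31 CPM with DMSO, while NCK1 had 56.7, 61.2, 61.2 and 56.5 CPM, against 29.4, 30.2, 30.9 and 29.5 CPM. The libraries of each gene were apart, and the changes were -0.95 ± 0.16 (SE), edgeR adjusted p = 1.2e-05, for NCK1-DT and 0.98 ± 0.04 (SE), edgeR adjusted p = 3.4e-16, for NCK1. The log2 ratio of NCK1-DT to NCK1 changed by -1.91 with STM2457 at 9 h, that of TFIP11-DT to TFIP11 by -1.58 and that of CEBPA-DT to CEBPA by -0.84, as differences of group means. Exons of NCK1-DT overlap SLC35G2 on the other strand. USP27X-DT, beside a deubiquitinase gene, was lower in all 3 comparisons (log2 changes -1.03, -0.87 and -0.66) and USP27X higher in all 3 (0.61 ± 0.10, 0.79 ± 0.08 and 0.58 ± 0.07). The call of USP27X-DT in the emetine experiment was lost without replicate 3 of STM2457 or replicate 2 of DMSO (-0.63 and -0.73, edgeR adjusted p = 0.087 and 0.061). COX10-DT and COX10, of heme A synthesis, did the same, with COX10-DT at -0.92, -1.06 and -0.47.

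**Figure D5:**
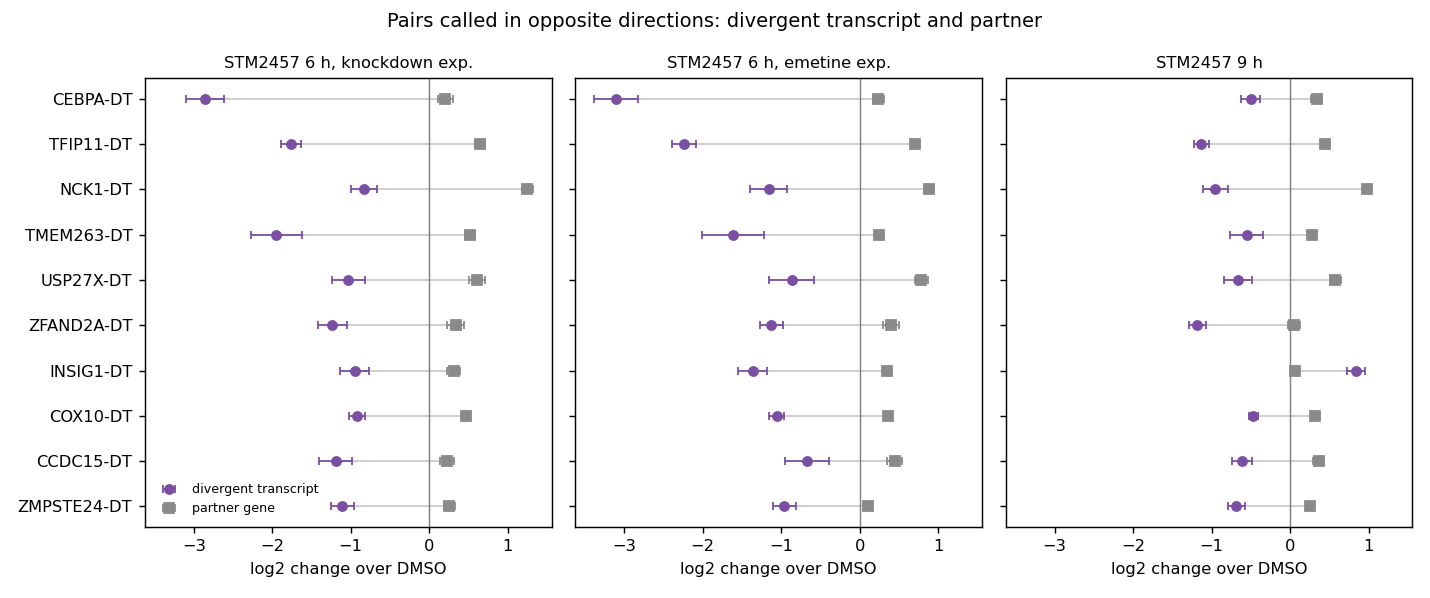
log2 change over DMSO (x axis) with its SE for the divergent transcript (circles) and partner (squares) of 10 pairs called in opposite directions in at least 2 of the 3 comparisons. The divergent transcript lies left of 0 and the partner right of 0 at 6 h in all 10 pairs, and INSIG1-DT lies right of 0 at 9 h.

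Among cells given YTHDF2 siRNA, STM2457 lowered 61 of the 150 divergent transcripts and raised 6, where 15.4% of all genes fell, 15.5% rose and 30.9% were called either way, with a median log2 change of -0.37 beside -0.0031 over all genes. Libraries did not overlap for 81 of the 150, 72 of them lower, where 48% of all genes did not overlap. The summed level was 291.2 ± 1.64 CPM with siRNA and STM2457, against 397.4 ± 5.48 CPM with siRNA and DMSO (SD, n = 3 each), a change of -26.7% without overlap. CEBPA-DT had 10, 2 and 10 reads with siRNA and STM2457, against 87, 107 and 78 reads with siRNA and DMSO, and BAIAP2-DT had 4.84, 4.37 and 4.39 CPM, against 16.9, 15.9 and 16.7 CPM. The 2 effects of STM2457, with and without siRNA, were called as different for 3 of the 150 transcripts, 2 lower (6.93% of all genes) and 1 higher (1.78%), where 8.7% of all genes were called either way. Among them, BOLA3-DT had a difference of -0.32 ± 0.09 (SE), edgeR adjusted p = 0.040, and KCTD13-DT one of 0.98 ± 0.29 (SE), edgeR adjusted p = 0.044, on the log2 scale. KCTD13-DT had 0.743, 0.728 and 0.638 CPM with siRNA and STM2457, against 1.52, 1.24 and 1.73 CPM with siRNA and DMSO, and without siRNA 0.436, 0.567 and 0.359 CPM with STM2457, against 1.67, 2.07 and 1.96 CPM with DMSO. BOLA3-DT had 10.2, 10.6 and 10.2 CPM with siRNA and STM2457, against 9.38, 9.203 and 8.81 CPM with siRNA and DMSO, and without siRNA 12.03, 11.9 and 11.8 CPM with STM2457, against 8.29, 8.79 and 8.26 CPM with DMSO. Scaled to ribosomal protein genes or to spike-ins, 0 of the 3 differences passed the threshold. The count of 3 fell to 1 without replicate 1 of STM2457, replicate 3 of DMSO, replicate 1 or 2 of siRNA with DMSO, or replicate 2 or 3 of siRNA with STM2457.

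YTHDF2 siRNA alone, in DMSO, lowered 37 of the 150 and raised 21, where 29.3% of all genes fell, 33.1% rose and 62.4% were called either way. Libraries did not overlap for 70 of the 150, 42 of them lower, where 70% of all genes did not overlap. This comparison shares its DMSO libraries with the knockdown experiment's test of STM2457. The median log2 change was -0.05 beside 0.02 over all genes, and the summed level was 397.4 ± 5.48 CPM with siRNA, against 431.5 ± 9.003 CPM without (SD, n = 3 each), a change of -7.92% without overlap. With scaling to spike-ins the counts were 18 lower and 15 higher, where 13.01% of all genes fell and 17.8% rose. FAM151B-DT had 2.43, 2.88 and 2.56 CPM with siRNA, against 4.98, 5.41 and 5.58 CPM without (-1.02 ± 0.12 (SE), edgeR adjusted p = 6.2e-07). MTA1-DT, beside the gene of a subunit of the NuRD chromatin complex, had 2.38, 2.95 and 2.25 CPM, against 5.63, 4.44 and 4.19 CPM (-0.90 ± 0.14 (SE), edgeR adjusted p = 2.0e-05). ZNF567-DT had 2.84, 2.61 and 2.797 CPM, against 1.17, 1.22 and 1.15 CPM (1.22 ± 0.19 (SE), edgeR adjusted p = 2.0e-05), and ZNF8-DT had 6.33, 5.65 and 5.59 CPM, against 2.51, 2.82 and 2.47 CPM (1.17 ± 0.11 (SE), edgeR adjusted p = 2.9e-08). In these 4 no siRNA library overlapped a control. Both zinc finger genes are partners, and ZNF567 rose with its divergent transcript (1.01 ± 0.07) while ZNF8 was not called (-0.20 ± 0.12).

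After emetine for 2 h, 37 of the 150 divergent transcripts rose and 5 fell, where 33.9% of all genes rose, 28.3% fell and 62.2% were called either way. Libraries did not overlap for 52 of the 150, 8 of them lower, where 65.4% of all genes did not overlap. The share that rose, 24.7%, was thus below that of all genes, while the median log2 change was 0.20 beside 0.04 over all genes. The summed level was 552.4 ± 12.9 CPM with emetine and 477.4 ± 13.04 CPM without (SD, n = 3 each), 15.7% higher without overlap, while that of the partners changed by -5.01%. This comparison shares its DMSO libraries with that of STM2457 in the same experiment. Scaling weighs heavily here: relative to ribosomal protein genes 106 rose and 0 fell, and relative to spike-ins 107 rose and 0 fell. Under those scalings 73.7% and 73.4% of all genes rose, so the shares that rose were near those of all genes. The median of all genes moved by 0.45 and 0.49 as well. The median of the divergent transcripts lay 0.16 above that of all genes under all 3 scalings.

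ODC1-DT, beside the gene of the first enzyme of polyamine synthesis, rose most. It had 4.68, 3.97 and 3.17 CPM with emetine, against 1.23, 1.01 and 0.895 CPM without, and ODC1 had 344, 361 and 358 CPM, against 363, 376 and 383 CPM. Neither gene's groups overlapped, with a rise of 1.8999 ± 0.20 (SE), edgeR adjusted p = 6.0e-10, for ODC1-DT and a small fall of -0.08 ± 0.03 (SE), edgeR adjusted p = 0.048, for ODC1. PTPN23-DT had 2.21, 2.28 and 2.35 CPM with emetine, against 0.795, 0.972 and 0.773 CPM without (1.42 ± 0.25 (SE), edgeR adjusted p = 8.2e-06), and GOLPH3-DT, beside the gene of a Golgi protein that binds phosphoinositide, had 3.196, 3.26 and 3.74 CPM, against 1.48, 1.35 and 1.75 CPM (1.16 ± 0.19 (SE), edgeR adjusted p = 2.0e-06). RIPK2-DT, beside a kinase gene of NOD signalling, had 5.898, 6.21 and 5.41 CPM, against 2.89, 2.99 and 2.400 CPM (1.07 ± 0.13 (SE), edgeR adjusted p = 1.1e-08). No emetine library of these 3 overlapped a control. ACAD9-DT, beside the gene of an assembly factor of respiratory complex I, rose by 1.43 ± 0.27 (SE), edgeR adjusted p = 1.8e-05.

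With emetine present, STM2457 lowered 69 of the 150 and raised 2, where 16.2% of all genes fell, 21.6% rose and 37.8% were called either way. Libraries did not overlap for 85 of the 150, 82 of them lower, where 48.4% of all genes did not overlap. The median log2 change was -0.44 beside 0.01 over all genes, and the summed level was 375.6 ± 4.73 CPM with STM2457 and emetine, against 552.4 ± 12.9 CPM with emetine alone (SD, n = 3 each), a change of -32.009% without overlap. TFIP11-DT had 1.72, 1.66 and 2.37 CPM with both, against 9.17, 10.1 and 9.55 CPM with emetine alone (-2.33 ± 0.13 (SE), edgeR adjusted p = 7.1e-16). CEBPA-DT had 0.1597, 0.316 and 0.313 CPM, against 2.32, 2.51 and 3.17 CPM (-3.33 ± 0.29 (SE), edgeR adjusted p = 2.5e-11). Neither overlapped. The effect of STM2457 was called as different with and without emetine for 11 transcripts, 8 lower (11.1% of all genes) and 3 higher (6.71%), where 17.8% of all genes were called either way. GOLPH3-DT had 1.96, 1.74 and 1.25 CPM with both, against 3.196, 3.26 and 3.74 CPM with emetine alone, a log2 change of -1.03 ± 0.19 (SE), edgeR adjusted p = 3.1e-05, while without emetine its change was 0.04 ± 0.22, and the difference was -1.07 ± 0.29 (SE), edgeR adjusted p = 0.0078. Without replicate 3 of STM2457 with DMSO that difference was -0.90 (edgeR adjusted p = 0.053), and 5 differences were called in place of 11. UBA6-DT fell less with emetine, with 10.8, 10.2 and 10.3 CPM, against 20.2, 17.5 and 18.4 CPM, and the difference was 0.57 ± 0.13 (SE), edgeR adjusted p = 0.0011.

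By exon structure, 33 transcripts had only single-exon models and 116 had more exons. With STM2457 for 6 h in the knockdown experiment 18 of the 33 (54.5%) fell and 3 rose, beside 39 of the 116 (33.6%) lower and 7 higher, where 22.1% of all genes fell and 22.9% rose, and the medians were -0.62 and -0.19 on the log2 scale. In the emetine experiment the counts were 17 of 33 and 43 of 116 lower, beside 21.9% of all genes, and within emetine 21 of 33 and 47 of 116, beside 16.2%. After emetine alone 13 of the 33 (39.4%) and 23 of the 116 (19.8%) rose, where 33.9% of all genes did, so the share was near that of all genes in the first set and below it in the second. The difference between these sets was not tested. Of the 50 that fell in both 6 h comparisons 32% were single-exon, and of the 69 called in neither 14.5%. The GGACT motif, a common form of the m6A consensus, was in the longest transcript of 43 of those 50 (86%) and of 56 of those 69 (81.2%), at a median of 0.902 and 1.04 sites per kb, beside 0.790 for the longest transcripts of the partners. Across the 149 annotated transcripts, GGACT density and the change in the knockdown experiment had a Spearman rho of 0.03, and mean reads and that change one of -0.03, as descriptions. Gaps between the starts had a median of 103 bp among the 50 and 153 bp among the 69.

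Genes that clear or end such transcripts, or protect against early ending, were looked at as a list of 45. It holds the exosome, its nuclear adaptors, the cap-binding and Integrator complexes and early termination factors. The U1 proteins SNRNP70, SNRPA and SNRPC, which protect against early ending, are counted with them. With STM2457 for 6 h, 8 of the 45 (17.8%) fell and 14 (31.1%) rose in the knockdown experiment, where 22.1% of all genes fell and 22.9% rose. In the emetine experiment 13 (28.9%) fell and 15 (33.3%) rose, where 21.9% and 26% of all genes did, and the medians were 0.01 and 0.00. At 9 h 26 (57.8%) fell and 11 (24.4%) rose, with a median of -0.15, where 32.5% of all genes fell and 32.2% rose. The largest rises and falls at 6 h were those of 4 genes, in both experiments. INTS5, an Integrator subunit, rose by 1.08 and 0.85 on the log2 scale, and EXOSC4, of the exosome core, by 1.02 and 0.83. ZFC3H1, a scaffold that leads polyadenylated nuclear RNA to the exosome, fell by 0.57 and 0.59, and EXOSC6 fell by 0.52 and 0.66. These 4 were chosen after their values were seen. Their part in the levels of the divergent transcripts was not tested.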

How the data were processed

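The study sequenced poly(A) RNA of HEK293T cells in 32 libraries. The deposited files hold an unscaled count of reads for each Ensembl gene. The submitters' processing notes name the build GRCh38.p12 and the tools featureCounts, Subread 2.0.0, SAMtools 1.9, STAR 2.7.3a, Trimmomatic, cutadapt (1.18, 4.0) and FastQC 0.11.8. Neither annotation release nor strand setting is given in the sources used here.

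Groups came from the labels alone. Counts were tested with edgeR 4.0.16 in R 4.3.3 (TMM, filterByExpr by group, quasi-likelihood F test, Benjamini-Hochberg over all genes, adjusted p under 0.05), without a replicate block, in a fit each for the knockdown (12 libraries), 9 h (8) and emetine (12) experiments, and in 1 of 14 libraries for the difference between times. In all, 7 comparisons and 3 differences of effects were made. Alternatives were DESeq2 1.42.0, its size factors, no low-count filter, scaling to ribosomal protein genes or ERCC spike-ins, the block, and leaving out each library. On simulated counts, the test recovered 71.7% of 1.5-fold and 80.8% of 2-fold changes for the first comparison, over 16373 genes.

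The members and lists were chosen with earlier results of these data known. Genes named by rule are the 8 highest by mean CPM and up to 5 with the largest called change each way per comparison (mean log2 CPM of at least 0, no overlap). The rules also take those called the same way in all 3 STM2457 comparisons (up to 10), up to 10 opposite pairs and the 3 largest each way in differences of effects. Some others were named outside these rules, such as MVP-DT and several that fell in every STM2457 comparison. The single values of 1 transcript are not reported here, though it is counted among the members. Symbols were looked up by Ensembl ID in a separate list of gene names. Exons and starts are from GENCODE 29, and promoters from RefSeq. Depth limits the transcripts near 20 reads most.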

Additional observations from a re-analysis of the deposited data

Results flagged for a closer look

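Differences between effects of STM2457 were called in 3 settings. Between cells with and without YTHDF2 siRNA, 3 of the 150 divergent transcripts differed, among them BOLA3-DT by -0.32 on the log2 scale (edgeR adjusted p = 0.040) and KCTD13-DT by 0.98 (0.044). Between libraries with and without emetine 11 differed, among them PAPOLA-DT by -1.14 (edgeR adjusted p = 0.023), GOLPH3-DT by -1.07 (0.0078), ZNF778-DT by -0.88 (0.025), UBA6-DT by 0.57 (0.0011), BAIAP2-DT by 0.47 (0.018) and CTBP1-DT by 0.36 (0.023). Between 9 h and 6 h 45 differed, among them CEBPA-DT by 2.38 (edgeR adjusted p = 5.3e-07), INSIG1-DT by 1.82 (1.5e-06), KCTD13-DT by 1.79 (2.3e-05), SP2-DT by -0.77 (0.0070) and ZDHHC12-DT by -0.69 (0.022).

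A single library stood apart from the other 3 of its group, by Dixon's test at the 95% level, in 11 of 118 groups of 4 checked, where chance gives about 1 in 20. Among DMSO libraries at 9 h, replicate 1 was lowest for CENATAC-DT with 5.68 CPM and highest for MAP2K5-DT with 2.21 CPM and RELA-DT with 1.57 CPM. Replicate 2 was highest for INSIG1-DT with 2.59 CPM, replicate 3 was lowest for PAPOLA-DT with 0.766 CPM and ZNF567-DT with 1.11 CPM, and replicate 4 was highest for PCDH10-DT with 1.56 CPM. Among STM2457 libraries at 9 h, replicate 1 was lowest for B4GAT1-DT with 1.22 CPM and ZNF8-DT with 3.40 CPM, and replicate 3 was highest for EIF3J-DT with 3.08 CPM and lowest for RAB30-DT with 11.8 CPM.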

How the results depend on the processing

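Counts of called divergent transcripts for STM2457 at 6 h, with and without siRNA or emetine, and at 9 h stayed within 1.5 times under every alternative run. Emetine alone gave 42 calls, 22 with DESeq2, 106 after scaling to ribosomal protein genes and 107 after spike-in scaling. Under those scalings 73.7% and 73.4% of all genes rose, and 2.29% and 1.44% fell. YTHDF2 siRNA gave 58 calls, and 33 after spike-in scaling, where 17.8% of all genes rose and 13.01% fell. The difference between 9 h and 6 h gave 45, and 99 with scaling to ribosomal protein genes, where 58.7% of all genes were higher and 0.316% lower. The difference with and without emetine gave 11, 5 with DESeq2 and 4 with scaling to spike-ins. Of all genes, 3.27% were lower and 1.52% higher under that spike-in scaling. The difference with and without siRNA gave 3, 1 with DESeq2, 1 with the replicate block, and 0 with scaling to ribosomal protein genes or to spike-ins. Why these moved was not tested. In the emetine comparison BAIAP2-DT and CENATAC-DT changed sign, to 0.071 and 0.16 after scaling to ribosomal protein genes and to 0.10 and 0.20 after spike-in scaling, none of them called. Leaving out 1 library gave for STM2457 at 6 h 56 to 68 calls (knockdown experiment) and 61 to 66 (emetine experiment), 65 to 74 at 9 h, 54 to 58 within siRNA, 64 to 70 within emetine, 54 to 58 for siRNA, 33 to 39 for emetine, and 34 to 41 for the difference between times. It gave 5 to 13 for the difference with emetine, the 5 without replicate 3 of STM2457 with DMSO, and 1 to 4 for that with siRNA, the 1 without any of 6 libraries (replicate 1 of STM2457, 3 of DMSO, 1 or 2 of siRNA with DMSO, 2 or 3 of siRNA with STM2457). Of named results under other settings, 666 kept direction and call, 65 lost the call and 4 changed sign (2 without an adjusted p in DESeq2 are not counted), and with 1 library left out 831 kept both and 83 lost the call. Correlations of same-numbered libraries' deviations ran from -0.36 to 0.598 (mean 0.075, against -0.040 for different numbers) among knockdown libraries, -0.15 to 0.34 among emetine libraries and -0.11 to 0.084 at 9 h, so not every pair was above 0.1. For STM2457 with siRNA against STM2457 alone all 3 were (0.598, 0.107 and 0.335). The replicate block moved no other count by over 1.5 times. Reads limit the transcripts near 20 counts.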

Other observations

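Of the 150 divergent transcripts, 10 lie beside a partner with a ZNF or ZKSCAN symbol, of the zinc finger family, a set picked after the values were seen and not tested. With STM2457 for 6 h, 6 of the 10 fell and 1 rose in the knockdown experiment and 5 fell and 0 rose in the emetine experiment, with median log2 changes of -0.53 and -0.61, where 22.1% and 21.9% of all genes fell. Of all 150 divergent transcripts 58 and 60 fell. With YTHDF2 siRNA 1 of the 10 fell and 4 (40%) rose, with a median of 0.24, where 29.3% of all genes fell and 33.1% rose. The more abundant 75 of the 150 gave 33 lower and 8 higher with STM2457 in the knockdown experiment, and the less abundant 75 gave 25 lower and 2 higher, with medians of -0.24 and -0.20.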
